A study of Equus caballus with 9 samples.

Results

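The genes described here are 10 marker and regulator genes of thermogenic fat: EBF2, PRDM16, PPARGC1A, ZIC1, DIO2, ADRB3, UCP1, CIDEA, COX7A1 and TMEM26. The genes were chosen with earlier results of these data known, and their rows were taken by symbol. Of the 10, 8 had a probe set that the platform annotation gives that single gene symbol, among 16661 genes named in this way. COX7A1 and ADRB3 were not analysed here. Each of the other 8 had 1 probe set, so no choice between probe sets was needed. Expression was measured in plastic-adherent equine cells on Affymetrix arrays, 3 arrays per group. The blood-derived cells (EA-ADSC) were cultured from mononuclear cells of 3 horses bled 2 h after electroacupuncture, a form of acupuncture in which the needles carry an electric current. The adipose cells (AD-MSC) came from tailhead fat and the bone marrow cells (BM-MSC) from marrow of horses that received no treatment, the marrow arrays being labelled as 3 horses. All cells were cultured for 96 h with 15% fetal bovine serum, and the labels name no adipogenic stimulus for any group. The horses' age is not given here.

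Brown and beige adipocytes burn fuel to make heat, whereas white adipocytes store it. EBF2 marks committed brown and beige precursor cells and opens fat-specific enhancers together with PPARG, while PRDM16 and the coactivator PPARGC1A (PGC-1 alpha) drive the brown fat and mitochondrial programmes. Noradrenaline acting on beta-adrenergic receptors switches the programme on, and DIO2 raises thyroid hormone inside the cell by converting thyroxine to its active form. UCP1 is the mitochondrial proton carrier that gives the heat in most mammals, although comparisons of mammalian genomes have shown the gene to be inactivated in the horse family. CIDEA coats lipid droplets, and ZIC1 and TMEM26 are used, mainly in mice, as markers of classical brown and of beige cells. All of these roles are known mostly from mouse and human fat.

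Values are the deposited log2 intensities, on which a difference of 1 is a 2-fold change, and they are given to compare arrays and not to rank genes. The 9 array medians ran from 4.56 to 4.66 and the median of all values was 4.62. The deposited values carry no background level, and a fold for a gene near or below that median holds for the deposited values. Differences were tested with limma on all 30559 probe sets, and adjusted p-values are Benjamini-Hochberg values over all of them. The labelled cell type was looked at through stromal markers: 14 or 15 of 15 mesenchymal stromal markers lay above the median of all values on every array. THY1 ran from 9.24 to 10.81 and ENG from 6.03 to 7.19, while the leukocyte and endothelial genes PTPRC and PECAM1 lay below that median on every array. Other leukocyte markers did not, since CD79A was above it on all 9 arrays and 7 of 16 leukocyte markers were above it on each marrow array. Of the defining adipocyte genes, ADIPOQ and LEP were each above it on 1 of 9 arrays and PLIN1 on all 9.

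Among the 8 thermogenic genes 2 differed among the 3 groups. EBF2 was highest in the adipose cells and DIO2 was lowest there, so these 2 genes, usually named together as thermogenic, had opposite orders across the cell sources. By limma's F test EBF2 had an adjusted p of 0.0018 and DIO2 of 0.00841, and each passed in all 9 fits that left out 1 array. At the same threshold 7.48% of all probe sets passed. TMEM26 had an adjusted p of 0.105, and the other 5 genes had adjusted p-values from 0.347 to 0.948.

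**Figure D1:**
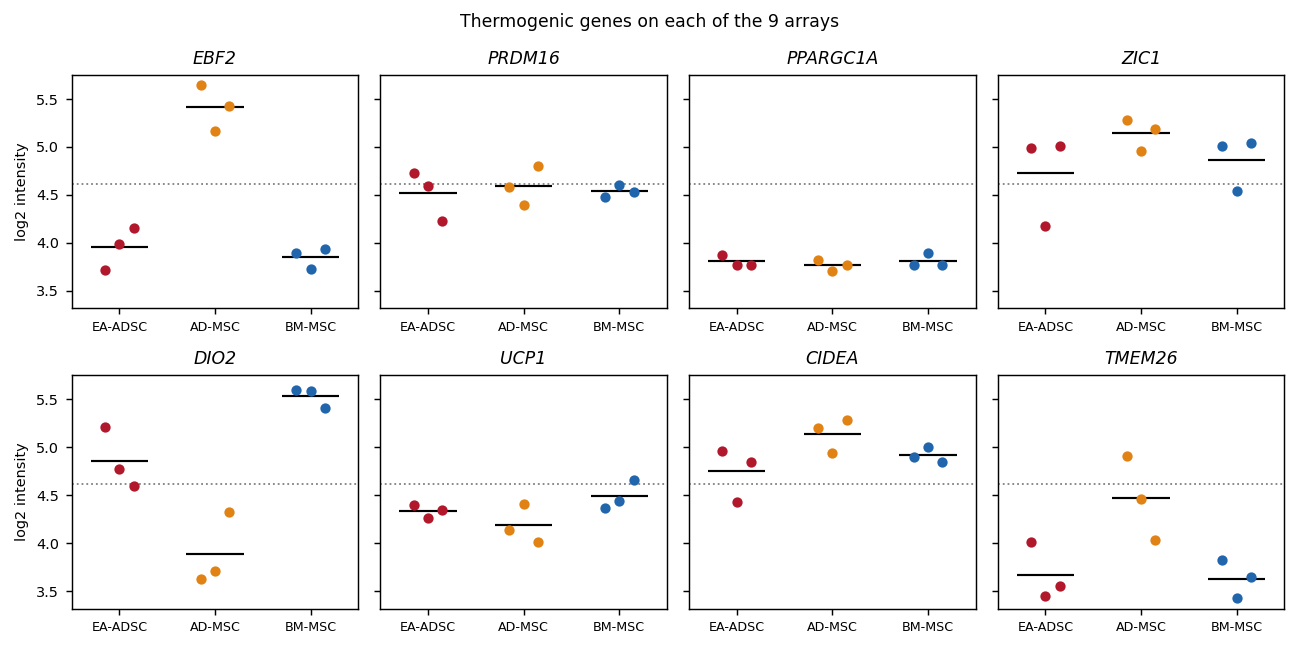
Log2 intensity (y axis) of the 8 thermogenic genes on each array (points) of the EA-ADSC, AD-MSC and BM-MSC groups (x axis), with group means (bars, n = 3) and the median of all values on the arrays (dotted line, 4.62). The 3 adipose arrays lie above the other 6 for EBF2 and below them for DIO2.

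EBF2, the early B cell factor of brown fat precursors, read 3.72, 3.99 and 4.15 in the 3 blood-derived samples, 5.65, 5.17 and 5.43 in the adipose samples, and 3.89, 3.73 and 3.94 in the bone marrow samples. The 3 adipose arrays lay above all others and above the median of all values, and the blood-derived and marrow arrays overlapped below it. The mean was 3.96 ± 0.22 in blood-derived cells and 5.41 ± 0.24 in adipose cells (SD, n = 3 each), a log2 difference of -1.46 (SE 0.17), or 2.75-fold lower in the blood-derived cells (adjusted p = 0.002). Adipose cells were 2.95-fold above the bone marrow cells, which averaged 3.85 ± 0.11, with a log2 difference of 1.56 (SE 0.17, adjusted p = 0.00149). These 2 comparisons share the adipose arrays and are not independent. In blood-derived against marrow cells the EBF2 log2 difference was 0.10, with a 95% interval from -0.28 to 0.48 (adjusted p = 0.911). Leaving out any 1 array kept both adipose calls, with log2 differences from -1.58 to -1.34 for blood-derived minus adipose cells and from 1.44 to 1.68 for adipose minus marrow cells. In bulk RNA a smaller share of EBF2-expressing cells and less EBF2 RNA per cell cannot be told apart. No run dates were available here, so tissue and a batch holding the adipose arrays alone cannot be told apart. This limit holds for every gene and list below that is compared between adipose cells and another group.

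DIO2, the activating deiodinase, read 5.21, 4.77 and 4.60 in the blood-derived samples, 3.63, 3.71 and 4.32 in the adipose samples, and 5.59, 5.58 and 5.41 in the marrow samples. No 2 groups overlapped, and the order of the means was marrow, then blood-derived, then adipose cells. The mean was 4.86 ± 0.32 in blood-derived and 3.89 ± 0.38 in adipose cells, a log2 difference of 0.97 (SE 0.22), or 1.96-fold higher in the blood-derived cells (adjusted p = 0.0362). In the adipose cells DIO2 was 3.12-fold below the marrow cells, which averaged 5.53 ± 0.10, a log2 difference of -1.64 (SE 0.22, adjusted p = 0.00455). Blood-derived minus marrow cells gave a DIO2 log2 difference of -0.67 with a 95% interval from -1.18 to -0.17, whose unadjusted p of 0.0154 became an adjusted p of 0.261. The call between adipose and marrow cells held without any 1 array (adjusted p from 0.00442 to 0.0249). The call between blood-derived and adipose cells held only without adipose replicate 3 (adjusted p = 0.0193), the array with the highest DIO2 of its group, and was lost without any other 1 of the 9 arrays (adjusted p from 0.0519 to 0.0973), while the DIO2 log2 difference ran from 0.80 to 1.19.

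TMEM26, a surface marker of beige cells in mice, had the same order of groups as EBF2 but did not pass. It read 4.01, 3.45 and 3.55 in the blood-derived samples, 4.91, 4.46 and 4.04 in the adipose samples, and 3.82, 3.43 and 3.65 in the marrow samples. The adipose arrays lay above all others, replicate 3 of them only just above replicate 1 of the blood-derived cells, and 1 of the 9 arrays, adipose replicate 1, was above the median of all values. The TMEM26 log2 difference was -0.80 (95% interval from -1.36 to -0.24, adjusted p = 0.0965) for blood-derived minus adipose cells and 0.84 (from 0.28 to 1.40, adjusted p = 0.088) for adipose minus marrow cells. Without adipose replicate 1 these became -0.58 and 0.62.

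The lipid droplet gene CIDEA read 4.96, 4.43 and 4.85 in the blood-derived samples, 5.20, 4.94 and 5.28 in the adipose samples, and 4.897, 5.003 and 4.850 in the marrow samples. The groups overlapped, with a CIDEA log2 difference of -0.39 for blood-derived minus adipose cells (95% interval from -0.77 to -0.01) whose unadjusted p was 0.0442 and adjusted p 0.22. ZIC1, a zinc finger transcription factor of classical brown fat, read 4.99, 4.18 and 5.01 in the blood-derived samples, 5.29, 4.96 and 5.19 in the adipose samples, and 5.01, 4.54 and 5.04 in the marrow samples. Replicate 2 was the lowest ZIC1 array in each group. The 3 ZIC1 log2 differences were -0.13 for blood-derived minus marrow, -0.42 for blood-derived minus adipose and 0.29 for adipose minus marrow cells, and the smallest adjusted p was 0.382.

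UCP1, PRDM16 and PPARGC1A lay mostly below the median of all values and passed no test. Since UCP1 is reported as inactivated in the horse family, its level is no readout of a thermogenic state here. UCP1 read 4.40, 4.27 and 4.34 in the blood-derived samples, 4.14, 4.41 and 4.01 in the adipose samples, and 4.37, 4.44 and 4.66 in the marrow samples. Of these UCP1 values 1 lay above the median of all values, and the largest UCP1 difference, that of adipose minus marrow cells, was -0.30 (95% interval from -0.63 to 0.02, adjusted p = 0.268). PRDM16 ran from 4.23 to 4.73 in blood-derived, from 4.40 to 4.80 in adipose and from 4.48 to 4.60 in marrow samples. Its group means of 4.52, 4.59 and 4.54 lay within the spread of each group's arrays, and no PRDM16 95% interval reached 0.46 in size. PPARGC1A read 3.88, 3.77 and 3.77 in the blood-derived samples, 3.82, 3.71 and 3.77 in the adipose samples, and 3.77, 3.89 and 3.77 in the marrow samples. On 5 of the 9 arrays PPARGC1A had exactly the same deposited value, as 3.4% of all probe sets had on at least 5 arrays, so its small spread is partly one of repeated values. The standard deviation over the 9 arrays exceeded that of 92.9% of probe sets for EBF2 and 92.4% for DIO2, against 23.3% for UCP1, 19.1% for PRDM16 and 0.785% for PPARGC1A.

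**Figure D2:**
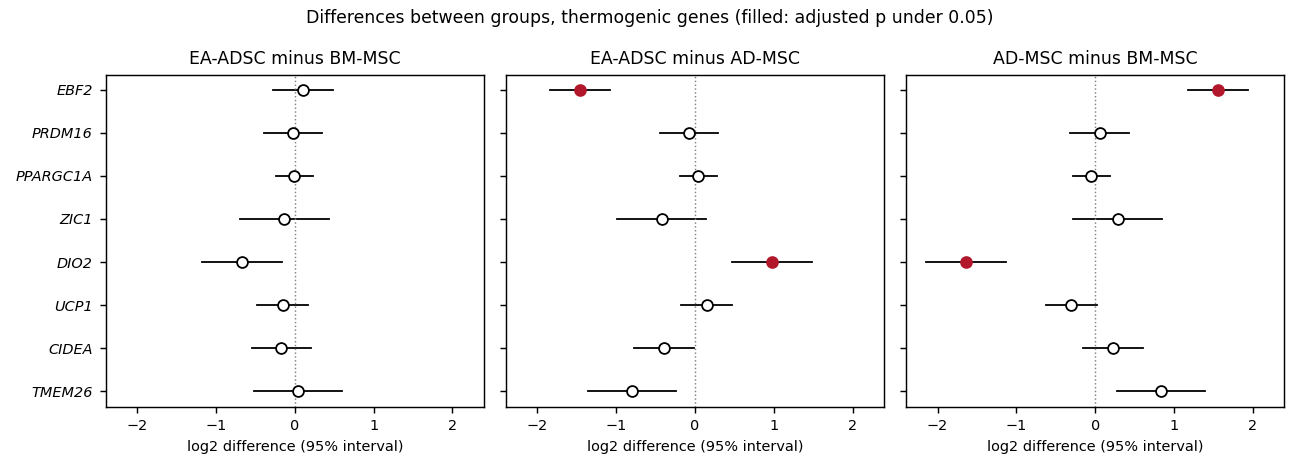
Log2 differences (x axis, points) with 95% intervals (lines) of the 8 thermogenic genes (y axis) in each comparison, filled where limma's adjusted p is under 0.05. EBF2 and DIO2 are filled in both comparisons that hold the adipose cells, on opposite sides of 0, and no gene is filled between blood-derived and marrow cells.

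Counted by comparison, 0 of the 8 thermogenic genes passed limma's threshold of an adjusted p under 0.05 between blood-derived and marrow cells, where 0.815% of all probe sets did. Here 1 of the 8, DIO2, had an unadjusted p under 0.05, against 11.7% of probe sets, and 1 of the 8, again DIO2, had arrays that did not overlap, against 18.4%. Between blood-derived and adipose cells 2 of 8 passed (6.92% of probe sets): DIO2 as higher (3.49% of probe sets were) and EBF2 as lower (3.43%). An unadjusted p under 0.05 was reached by 4 of 8 (21.2% of probe sets) and arrays without overlap by 3 of 8 (23.5%). Between adipose and marrow cells 2 of 8 passed (6.08% of probe sets): EBF2 as higher (2.83%) and DIO2 as lower (3.25%). There 3 of 8 had an unadjusted p under 0.05 (21.1%) and 3 of 8 did not overlap (25.6%). The median log2 difference over the 8 genes was -0.08 for blood-derived minus marrow, -0.23 for blood-derived minus adipose and 0.14 for adipose minus marrow cells, beside medians over all probe sets of 0.01, -0.02 and 0.04.

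Among the members themselves, EBF2 and DIO2 ran opposite ways over the 9 arrays, with a Pearson r of -0.895, and of -0.464 after the group means were removed. EBF2 and TMEM26 gave 0.809 over the 9 arrays and 0.054 after removal of the group means, so the likeness seen was mostly that of the group means. With so few arrays a low r does not show that likeness within groups is absent. These are descriptions of 9 arrays in 3 groups of shared source.

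Of the family relatives of these genes 17 of 22 were measured, and those that changed were higher in the adipose cells. EBF1, the early B cell factor shared by white and brown fat, read 5.81, 6.33 and 6.43 in the blood-derived, 7.68, 7.24 and 7.04 in the adipose and 6.43, 6.59 and 6.59 in the marrow samples. It followed EBF2 in being lower in blood-derived than in adipose cells, by a log2 difference of -1.13 (SE 0.21, adjusted p = 0.0169), a call that held without any 1 array. Of 9 other alternatives 8 kept this EBF1 call, and the highest limma adjusted p among them all was 0.0657. Adipose minus marrow cells gave 0.78 for EBF1 (adjusted p = 0.0697, and 0.0461 without blood-derived replicate 1). CIDEC, the lipid droplet relative of CIDEA found in white fat, read 4.29, 4.24 and 4.42 in blood-derived samples, 5.62, 7.83 and 6.66 in adipose samples, and 4.15, 4.64 and 4.02 in marrow samples. It was lower in blood-derived than in adipose cells by -2.39 (adjusted p = 0.0205) and higher in adipose than in marrow cells by 2.43 (adjusted p = 0.0214). These CIDEC calls were lost without any 1 blood-derived array in the first comparison, without any 1 marrow array in the second, and without adipose replicate 3 in both, with adjusted p-values of at most 0.0764.

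UCP2, a widely expressed relative of UCP1 that is not a heat-producing carrier of brown fat, read 5.80, 6.21 and 5.97 in the blood-derived, 6.68, 8.34 and 8.18 in the adipose and 6.02, 5.20 and 6.15 in the marrow samples. Adipose cells were above marrow cells by 1.95 in UCP2 (adjusted p = 0.0372), a call that held only without adipose replicate 1 among the 9 fits that left out an array. Blood-derived minus adipose cells gave -1.74 for UCP2 (adjusted p = 0.0505, and 0.00713 without adipose replicate 1). The other deiodinases did not pass with all 9 arrays. DIO3, which inactivates thyroid hormone, read 4.49, 4.73 and 6.28 in the blood-derived samples, 3.82, 4.04 and 4.22 in the adipose samples and 3.99, 3.76 and 3.90 in the marrow samples, so the blood-derived arrays were the highest and replicate 3 stood above the other two. The DIO3 log2 differences were 1.28 against marrow (adjusted p = 0.24) and 1.14 against adipose cells (adjusted p = 0.148). DIO1 gave 0.55 for blood-derived minus adipose cells (adjusted p = 0.0656, but 0.0216 without blood-derived replicate 1 and under the threshold in 4 of 9 other alternatives) and 0.30 for blood-derived minus marrow cells (adjusted p = 0.505). Of the 17 relatives 2 were lower in blood-derived than in adipose cells (3.43% of all probe sets were). In adipose against marrow cells 2 were higher (2.83% were), a count that was 0 without any 1 marrow array or without adipose replicate 3. None passed between blood-derived and marrow cells, where 1 had an unadjusted p under 0.05 (11.7% of all probe sets did).

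**Figure D3:**
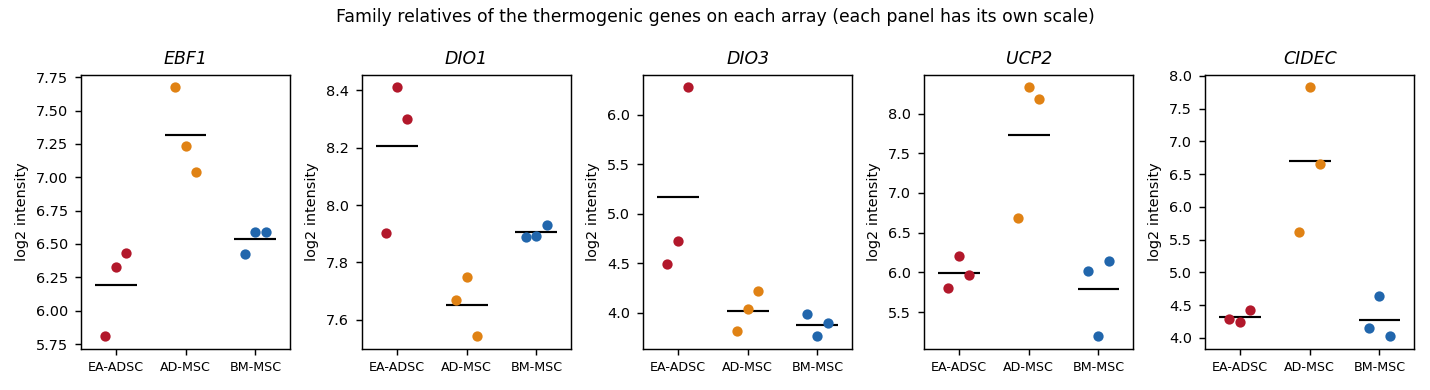
Log2 intensity (y axis, own scale in each panel) of EBF1, DIO1, DIO3, UCP2 and CIDEC on each array (points) of the 3 groups (x axis), with group means (bars, n = 3). The adipose arrays of EBF1, UCP2 and CIDEC lie above those of the other groups, and blood-derived replicate 3 lies highest for DIO3.

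Transcription regulators of brown and beige fat were measured for 30 of 33 listed genes. In blood-derived against marrow cells 1 was higher (0.35% of all probe sets were) and 0 lower. This was SHOX2, a homeobox gene known as a positional marker of fat depots in mice, at 8.14 ± 0.52 and 4.79 ± 0.26, a log2 difference of 3.36 (adjusted p = 0.00135). TBX15, a T-box gene of fat and skeletal patterning, had an adjusted p of 0.0616 there at 5.09 ± 0.13 and 3.64 ± 0.42. Without adipose replicate 3 the count of higher regulators was 2. Against adipose cells the blood-derived cells had 1 regulator higher, SHOX2 (1.27, adjusted p = 0.0254, lost without blood-derived replicate 1 or 3 or adipose replicate 1 or 3), and 5 lower. Of all probe sets 3.49% were higher and 3.43% lower. The 5 were the deacetylase SIRT1 (-1.18, adjusted p = 0.00715), the adipogenic receptor PPARG (-2.46, 0.0242), NFIA (-0.69, 0.0256), a factor that works with PPARG at brown fat enhancers in mice, HOXC10 (-0.92, 0.0301), a homeobox gene of subcutaneous fat, and the retinoblastoma gene RB1 (-0.86, 0.0494), the last pair being named after their values were seen. SIRT1 alone of these 6 genes kept its call without any 1 array, and the count of lower regulators was 1 when blood-derived replicate 3 was left out, 2 when blood-derived replicate 1 or 2 or adipose replicate 3 was, and 3 for each marrow array. In adipose against marrow cells 4 were higher (2.83% of all probe sets were) and 0 lower: SHOX2 (2.08, adjusted p = 0.00343), NFIA (0.82, 0.014), TBX15 (1.43, 0.0227) and SIRT1 (0.91, 0.0237). Without marrow replicate 1 the count of 4 became 1, and without marrow replicate 3 it became 2. Without adipose replicate 1 the count of lower regulators was 1. The median log2 difference over the 30 regulators was 0.02 for blood-derived minus marrow, -0.03 for blood-derived minus adipose and 0.10 for adipose minus marrow cells.

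Signals that drive or brake thermogenesis were measured for 30 of 32 genes. METRNL, a secreted protein linked to beige fat in mice, was the 1 gene lower in blood-derived than in marrow cells (0.465% of all probe sets were lower), at 7.06 ± 0.17 and 8.75 ± 0.12 (log2 difference -1.70, adjusted p = 0.0377). It kept this call only without adipose replicate 2 or 3, although the METRNL log2 difference stayed between -1.76 and -1.60, and without blood-derived replicate 1 another gene of this list was called higher instead. Set against adipose cells, the blood-derived cells had higher levels of 4 of these genes (3.49% of all probe sets were higher) and lower levels of 2 (3.43%). The higher ones were INHBA, which encodes an activin subunit (9.68 ± 0.76 and 4.70 ± 0.32, log2 difference 4.97, adjusted p = 2.19e-04), NPR3, the clearance receptor that removes natriuretic peptides (3.91, 0.00733), GNAS, the stimulatory G protein subunit downstream of beta-adrenergic receptors (0.83, 0.00582), and the hormone gene FGF21 (1.77, 0.0294), which kept its call in 3 of the 9 fits without 1 array. METRNL (-1.53, adjusted p = 0.0153) and the kinase gene MAPK14 (-1.13, 0.0162) were lower. The count of lower genes was 1 without blood-derived replicate 1 or without adipose replicate 3. MAPK14 and FGF21 were named after their values were seen. In adipose against marrow cells 3 were lower (3.25% of all probe sets were): INHBA (-3.54, adjusted p = 0.00115), NPR3 (-3.44, 0.014) and the receptor gene FGFR1 (-1.14, 0.0284). That count was 1 without marrow replicate 1 or adipose replicate 3 and 5 without blood-derived replicate 1. The median over the 30 genes was -0.04 for blood-derived minus marrow, 0.08 for blood-derived minus adipose and -0.13 for adipose minus marrow cells.

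Thermogenic effectors and fuel handling genes were measured for 30 of 32 genes. None passed between blood-derived and marrow cells, where 10 had an unadjusted p under 0.05 (11.7% of all probe sets did). FABP3, a fatty acid binding protein of oxidative tissues, was at 7.92 ± 0.42 in blood-derived and 9.87 ± 0.43 in marrow cells (adjusted p = 0.064, and 0.0432 without adipose replicate 3). Of the 30 genes 5 were lower (3.43% of all probe sets were) and 1 was higher (3.49%) in blood-derived than in adipose cells. The lower ones were ACADM, an enzyme of mitochondrial fatty acid oxidation (-1.52, adjusted p = 8.08e-04), FABP3 (-3.22, 0.00234), CKMT2, a mitochondrial creatine kinase (-0.78, 0.016), FABP4, a fatty acid binding protein of adipocytes (-5.57, 0.0171), and ACSL1, which activates fatty acids (-1.24, 0.0482). ACADVL, another enzyme of fatty acid oxidation, was the 1 higher (0.48, 0.0281), and ACSL1 and ACADVL were named after their values were seen. ACADM and FABP3 kept their calls without any 1 array. The count of 5 became 3 with blood-derived replicate 1 left out and 2 with replicate 2 or 3 of that group left out, and ACADVL kept its call only without adipose replicate 1. Adipose against marrow cells had 2 higher (2.83% of all probe sets were), ACADM (1.15, adjusted p = 0.00318) and PDK4 (2.60, 0.044), and 1 lower (3.25%), ACADVL (-0.52, 0.0227). ACADM kept this call without any 1 array. PDK4, a kinase that turns off glucose oxidation, kept it only without adipose replicate 1 or 3, and ACADVL lost it without any 1 marrow array or without adipose replicate 3. The count of 2 higher effectors was 4 without adipose replicate 1. The median over the 30 genes was -0.08 for blood-derived minus marrow, -0.12 for blood-derived minus adipose and 0.06 for adipose minus marrow cells.

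Surface markers of beige and white progenitors were measured for 13 of 14 genes, and 1 passed in 1 comparison. It was lower in blood-derived than in adipose cells (3.43% of all probe sets were). PDGFRA, a receptor of fat progenitors and other stromal cells, was at 5.66 ± 1.09 in blood-derived and 8.15 ± 0.17 in adipose cells (log2 difference -2.49, adjusted p = 0.0143, lost without adipose replicate 3 at 0.0521). Adipose minus marrow cells gave 1.495 for PDGFRA (adjusted p = 0.095, and 0.0133 or 0.0325 without blood-derived replicate 1 or 2). In that comparison PDGFRA was the 1 gene of the 13 with a difference above 0, and 12 lay below. CD81, also on this list, gave -1.22 there. It did not pass with all 9 arrays but did in 3 of 9 other alternatives. The median over the 13 genes was 0.002 for blood-derived minus marrow, 0.08 for blood-derived minus adipose and -0.08 for adipose minus marrow cells.

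Lists of markers of other cell types were looked at beside these results. Of 14 measured mature adipocyte markers 3 were lower in blood-derived than in adipose cells (3.43% of all probe sets were), FABP4, CIDEC and PPARG, each also on a list above. Between blood-derived and marrow cells 0 passed (0.815% of all probe sets did). Without any 1 blood-derived array the count of 3 was 0, and it was 1 without adipose replicate 3. The mean log2 level over the 14 markers ran from 4.55 to 4.66 in blood-derived, from 4.99 to 5.50 in adipose and from 4.70 to 5 in marrow samples. Adipose replicate 1 had the lowest mean of these markers in its group and the highest EBF2 and TMEM26. It also had the most markers above the median of all values, 11 of 14, against 9 and 10 on adipose replicates 2 and 3. EBF2 differed by -1.34 between blood-derived and adipose cells without adipose replicate 1. FABP4 read 6.25 on that array, against 11.28 and 8.14 on the other two adipose arrays. Between adipose and marrow cells CIDEC alone of the 14 was called (6.08% of all probe sets were), and none was without any 1 marrow array or adipose replicate 3, while 2 were without adipose replicate 1.

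Among 12 pericyte and smooth muscle markers 5 were lower in adipose than in marrow cells (3.25% of all probe sets were), a count that was 3 without marrow replicate 1 or 3. In blood-derived against adipose cells 5 were higher (3.49% were). The list had mean levels from 7.15 to 7.48 in blood-derived, from 5.03 to 5.54 in adipose and from 6.85 to 7.21 in marrow samples. The actin-binding gene TAGLN averaged 11.42 ± 0.20 in blood-derived, 6.63 ± 1.03 in adipose and 11.62 ± 0.13 in marrow cells, with an adjusted p of 6.28e-04 for blood-derived minus adipose and 5.48e-04 for adipose minus marrow cells. Of 15 mesenchymal stromal markers 7 were higher (3.49% of all probe sets were) and 1, PDGFRA, lower (3.43%) in blood-derived than in adipose cells. In adipose against marrow cells 1 was higher (2.83%) and 7 lower (3.25%). Of the same 15 markers 2 were higher in blood-derived than in marrow cells (0.35% of all probe sets were), and 1 was without any 1 array of those groups. Collagen gene COL3A1 averaged 9.12 ± 0.26 in blood-derived, 6.42 ± 0.37 in adipose and 8.98 ± 0.17 in marrow cells. Of 16 leukocyte markers 1, FCER1G, was lower in blood-derived than in marrow (0.465% of all probe sets were) and than in adipose cells (3.43%). In adipose against marrow cells 2, TYROBP and CORO1A, were lower (3.25%). FCER1G averaged 3.93 ± 0.49 in blood-derived, 6.58 ± 0.42 in adipose and 7.53 ± 1.09 in marrow cells. FCER1G kept its call in 6 of 9 fits without 1 array against marrow and in 5 of 9 against adipose cells, CORO1A kept its call in 3 of 9 (those without blood-derived replicate 1, adipose replicate 1 or marrow replicate 2) and TYROBP in all 9. FCER1G lost it against marrow cells without blood-derived replicate 2 or 3 or marrow replicate 3, and against adipose cells without blood-derived replicate 2 or 3 or adipose replicate 1 or 3. The mean level over the leukocyte markers ran from 4.13 to 4.28 in blood-derived, from 4.35 to 4.66 in adipose and from 4.70 to 5.31 in marrow samples, without overlap. None of 10 endothelial markers passed in any comparison, where 1 in each had an unadjusted p under 0.05, against 11.7% to 21.2% of all probe sets. Of 10 skeletal myogenic markers, the lineage that shares precursors with classical brown fat in mice, DES alone passed, at 9.03 ± 0.86 in blood-derived, 4.89 ± 0.10 in adipose and 5.38 ± 0.32 in marrow cells. DES was higher in blood-derived than in marrow (0.35% of all probe sets were) and adipose cells (3.49%), and it is on the pericyte and smooth muscle list too. The part of these marker levels in the EBF2 and DIO2 differences was not tested.

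**Figure D4:**
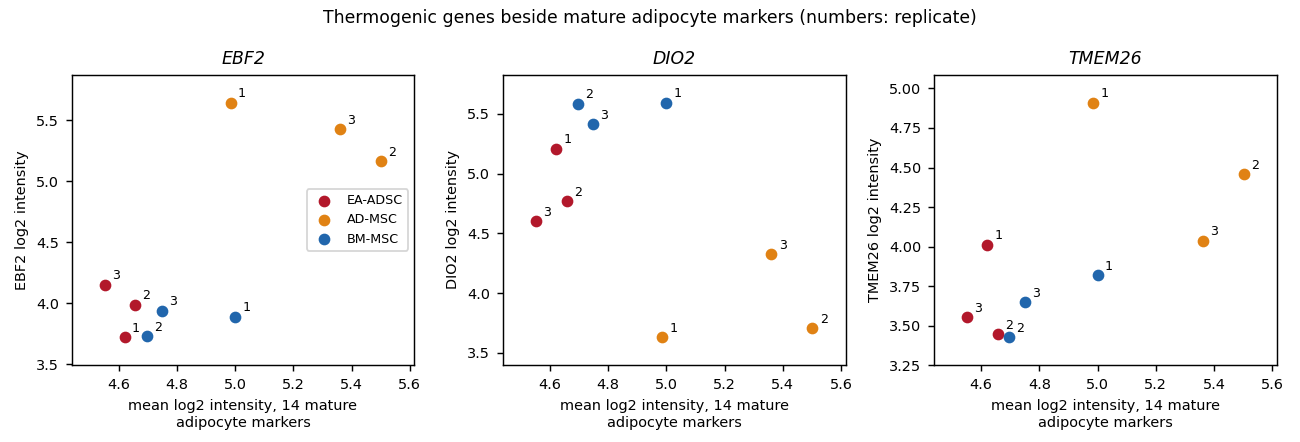
Log2 intensity of EBF2, DIO2 and TMEM26 (y axes) against the mean log2 intensity of 14 mature adipocyte markers (x axis), 1 point per array, coloured by group and numbered by replicate. Within the adipose group EBF2 and TMEM26 are highest on replicate 1, where the mean of the adipocyte markers is lowest.

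The genes whose profile over the 9 arrays was most like that of EBF2, among 16661 genes, were DMAC2L (Pearson r 0.989), MBOAT1 (0.988), FKBP5 (0.981), TMEM107 (0.981) and LAPTM4B (0.979). All 5 were highest in adipose cells. FKBP5, a glucocorticoid-induced chaperone, averaged 6.30 ± 0.85 in blood-derived, 10.45 ± 0.13 in adipose and 5.86 ± 0.10 in marrow cells. After the group means were removed, r with EBF2 was 0.849 for DMAC2L and 0.504 to 0.716 for the other 4. The genes most like DIO2 were PLEKHG5 (r 0.972), AFF4 (0.970), GNL2 (0.968), LOC100055507 (0.967) and ARHGAP28 (0.964), each highest in marrow and lowest in adipose cells. With the group means removed PLEKHG5 stayed at 0.936 and the others at 0.705 to 0.782. These values describe 9 arrays that fall into 3 groups, and most of the likeness over all arrays is that of the group means. The genes were chosen by their r over all 9 arrays. Neither their order of groups nor the r left after removal of the group means is therefore a separate result.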

How the data were processed

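The authors deposited 1 normalized log2 intensity per probe set and array for 9 arrays hybridised with biotin-labelled, amplified RNA (100 ng of total RNA per sample, per the labels' protocols). The submitters' processing notes name Affymetrix Expression Console, Transcriptome Analysis Console 3 and Partek 6.16.0419. How they summarized and normalized the probes was not given in the sources used here, and that the log base is 2 was read from the range of 0.86 to 13.56. Values were used as deposited. Normalization between arrays can hide a shift shared by most genes. On at least 2 arrays 37.3% of probe sets have the same value.

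With limma 3.58.1 in R 4.3.3, lmFit and eBayes fitted 1 mean per group to the 9 arrays for each of the 30559 probe sets, leaving 6 residual degrees of freedom. Tests of contrasts were two-sided, intervals are moderated 95% intervals, and an adjusted p under 0.05 was the threshold. The procedure was tested on simulated data. For blood-derived minus marrow cells it called 26.9% of simulated log2 changes of 1 and 83.6% of those of 2. A missing call there does not show equal levels. Single symbols name 16789 probe sets, several symbols 343, and 13427 have none here. The members and lists were chosen with earlier results of these data known. All members are named, and from other lists those past the threshold (first 4 by adjusted p, others where stated), or otherwise up to 2 with the smallest p. For EBF2 and DIO2, the 5 genes of highest correlation are named. Alternatives were other normalizations, a filter on dim probe sets, limma-trend, array weights, the replicate number as a block, 1 value per gene, 2-group fits, a 2-fold criterion and leaving out each array. Nothing but the labels' horse names shows that samples are biologically separate, and adipose samples carry none, so p-values measure the spread between these arrays.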

Additional observations from a re-analysis of the deposited data

How the results depend on the processing

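The EBF2 calls in both comparisons with adipose cells, the DIO2 call between adipose and marrow cells and both F test calls held under every alternative run. The count of 2 thermogenic genes called between blood-derived and adipose cells became 1 with array weights, with the 2 groups alone and with a 2-fold criterion, and ran from 1 to 2 in the fits without 1 array. DIO2 was the gene lost, with a log2 difference of 0.81 (adjusted p = 0.0731), 0.97 (0.106) and 0.97 in those alternatives. The labels name different horses for blood and marrow, so their replicate numbers carry no shared horse, and they name none for fat. Across groups, residuals of same-numbered arrays correlated at -0.02 to 0.12 and those of differently numbered arrays at -0.12 to 0.04. Whether same-numbered arrays shared a run is not known. With the replicate block DIO2 lost its call between blood-derived and adipose cells (adjusted p = 0.0811), TMEM26 gained one there (adjusted p = 0.0498) and between adipose and marrow cells (0.0461), and the counts were 2 and 3. The filter on dim probe sets removed UCP1, PRDM16, PPARGC1A and TMEM26. EBF2 passed it through its adipose arrays alone, and DIO2 through its marrow and blood-derived arrays alone. The filtered fit therefore adds no separate support for the calls of EBF2 and DIO2.

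Signs turned only in differences that had passed no test, mostly without 1 array. For blood-derived minus marrow cells the values without 1 array ran from -0.13 to 0.12 for PRDM16, -0.04 to 0.034 for PPARGC1A, -0.13 to 0.15 for TMEM26 (and -0.018 with array weights), -0.30 to 0.14 for ZIC1, -0.081 to 0.23 for CIDEC and -0.088 to 0.39 for UCP2. PRDM16 ran from -0.18 to 0.066 for blood-derived minus adipose and from -0.048 to 0.16 for adipose minus marrow cells. The cause was not tested. The 3 arrays per group and unknown background limit what can be seen of dim genes.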
